A study of Homo sapiens with 6 samples.

Results

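The genes described here encode the ligands and receptors of axon guidance, together with the SRGAP proteins that act below one receptor family. They were chosen by symbol among the genes of the deposited fold-change table (semaphorins, plexins, neuropilins, netrins, netrin receptors, SLIT and ROBO genes, SRGAP genes, ephrins and EPH receptors) and joined by Ensembl identifier to the raw counts. This gave 56 of 14646 genes, namely 28 ligands, 25 receptors and 3 intracellular proteins. Of the 14646 genes, 13200 had a symbol there. Family members outside the 56 were not analysed, so counts by family do not stand for whole families. RNA from IGROV1, a *PIK3CA*-mutated human ovarian cancer cell line, was sequenced in 2 groups of 3 libraries. IGROV1Sen is the parental, GDC0032-sensitive form. IGROV1Res is the GDC0032-resistant form, which the study made by exposing IGROV1 cells to rising concentrations of this inhibitor of PI3K over months. All 6 labels contain UT, an abbreviation without a definition there, taken here to mean that no GDC0032 was present at harvest. The paper's sequencing methods describe cells given GDC0032 or DMSO, and whether UT stands for the DMSO cells is not stated. Both groups are the same cell line, whether IGROV1Res is 1 clone is not given in the sources used here, and nothing in the labels tells whether the 3 libraries of a group come from separate cultures. The p-values therefore rest on the spread between libraries, which may be technical.

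Guidance molecules steer growing axons toward or away from a target, and the same molecules regulate adhesion, migration and vessel growth in epithelia and tumors. Semaphorins signal through plexins, and the secreted class 3 semaphorins need a neuropilin as co-receptor. Netrins bind DCC, its relative neogenin and the UNC5 receptors. SLIT proteins bind ROBO receptors, whose cytoplasmic part recruits SRGAP proteins, regulators of small GTPases. Ephrins are bound to the membrane, by a lipid anchor in class A and by a transmembrane segment in class B, and they activate EPH receptor tyrosine kinases on the neighboring cell.

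The libraries held 12808922 to 15241394 counts, so that 3 counts, the level a count of 0 allows, stand for 0.197 to 0.234 CPM (counts per 1000000 counts of the library), for counting error only. All other CPM values are scaled by TMM (trimmed mean of M-values) factors. IGROV1Sen replicate 1 and IGROV1Res replicate 3 stood apart from the others, with 7.02% and 6.94% of their counts from mitochondrially encoded genes against 10.1% to 12.8% in the other 4 libraries. Among the guidance genes, IGROV1Sen replicate 1 was the lowest library of its group for 33 of 54 genes (61.1%, against 40.9% of all tested genes), and IGROV1Res replicate 3 for 25 of 54 (46.3%, against 35.6%). The results below are therefore also given without these libraries where that changes a call. IGROV1Sen replicates 2 and 3 were much closer to each other (chi-square per degree of freedom of 1.47) than the other pairs of one group (11.9 to 32.7), but differed by more than sampling noise and were counted as 2. Of 11 markers of ovarian carcinoma epithelium, 8 were in the table, summing to 1371 to 1517 CPM in IGROV1Sen and 2007 to 2407 CPM in IGROV1Res. *PAX8* was at 832 and 819 CPM in IGROV1Sen and IGROV1Res and *KRT19* at 320.2 and 282 CPM, neither of them called. *KRT18* rose from 295 to 1063 CPM, *KRT8* from 7.94 to 53.8 CPM and *EPCAM*, still low, from 0.729 to 1.93 CPM, while *CDH1*, *KRT7* and *MUC1* were at 1.28 CPM or below. None of 6 leukocyte markers and 2 of 6 neuronal markers were in the table, the latter summing to 3.78 to 4.48 CPM in IGROV1Sen and 3.08 to 3.80 CPM in IGROV1Res. Of 9 fibroblast markers 5 were in the table, summing to 25.6 to 28.7 and 33.8 to 50.3 CPM, and of 6 endothelial markers 2, summing to 114 to 142 and 175 to 178 CPM, most of it *CDH5*. Their part in the results was not tested. In such bulk samples, fewer cells expressing a gene and less RNA of it per cell cannot be told apart.

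In IGROV1Res, axon guidance genes were mostly lower than in IGROV1Sen. Of the 54 genes that passed the filter on low counts, 29 were downregulated (53.7%) and 5 were upregulated (9.26%), while 18.3% of all 13791 tested genes were downregulated and 17.4% upregulated. The median log2 fold change of the 54 genes was -0.50, against -0.01 over all tested genes. Decreases of at least 1 on the log2 scale were called in 17 of the 54 genes (5.88% of all tested genes) and increases of that size in 3 (4.5% of all tested genes). The 3 IGROV1Res libraries did not overlap with the 3 IGROV1Sen libraries in 37 of the 54 genes, where 47.8% of all tested genes did not overlap. Calls rest on edgeR's quasi-likelihood test with Benjamini-Hochberg adjustment over all tested genes and a threshold of 0.05, and all fold changes set IGROV1Res over IGROV1Sen. In the families with 0 upregulated genes, *UNC5B* and *EPHB3* were the genes that rose at an unadjusted p under 0.05. Of 18 alternative settings, 6 called *UNC5B*, 3 called *EPHB3* and 1 called *PLXND1* upregulated, while DESeq2, also among the 18, called none of them. Without the 2 libraries that stood apart, 29 guidance genes were downregulated and 7 upregulated, where 20.8% and 21.0% of all tested genes were. There *ROBO1* lost its call, *PLXNA3* was newly downregulated, and *EPHB3* and *NRP1* were newly upregulated.

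Summed over all 56 genes, the guidance genes had 4281.0 ± 83.05 CPM in IGROV1Sen and 3148.6 ± 244.4 CPM in IGROV1Res (SD, n = 3 each). The lowest IGROV1Sen library had 4186 CPM and the highest IGROV1Res library 3424.5 CPM. The netrin receptors together fell from 95.4 to 104.6 CPM in the IGROV1Sen libraries to 20.0 to 24.0 CPM in those of IGROV1Res, and the class 3 semaphorins from 875.8 ± 85.9 to 459.2 ± 125.4 CPM. Of the other families, the sum of ephrin-A genes was 67.8 ± 6.04 CPM in IGROV1Sen and 77.1 ± 8.95 CPM in IGROV1Res, and these libraries overlapped. The ephrin-B sum was higher in IGROV1Res without overlap, at 102.9 to 120.1 CPM against 88.4 to 96.8 CPM in IGROV1Sen. Neuropilins summed to 171.1 ± 24.0 CPM in IGROV1Sen and 190.8 ± 19.9 CPM in IGROV1Res, with overlap. The mean sums of all remaining families were lower in IGROV1Res.

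**Figure D1:**
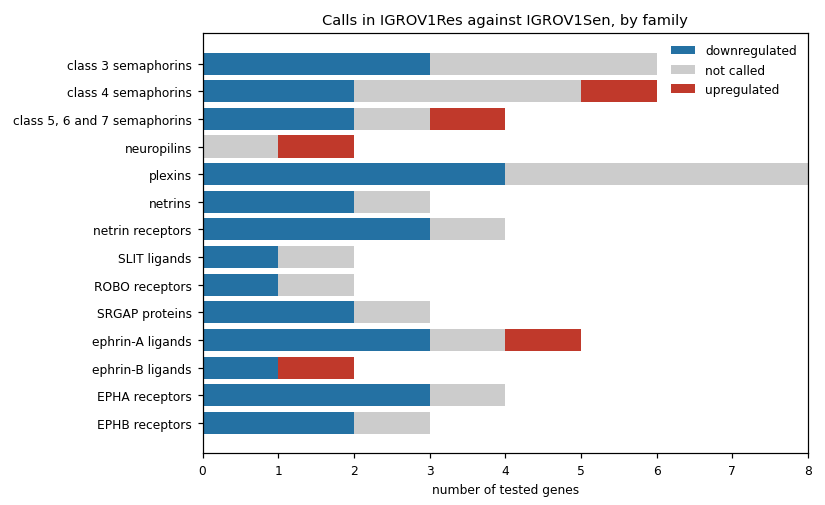
Number of tested genes that were downregulated (blue), not called (gray) or upregulated (red) in IGROV1Res against IGROV1Sen, in each of 14 families of axon guidance genes. All families but the neuropilins held at least 1 downregulated gene, and the 5 upregulated genes lie in 5 families.

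The largest decrease was that of *UNC5C* (ENSG00000182168), which encodes a netrin receptor known for repulsive guidance and for starting apoptosis when no netrin is bound. It had 529, 622 and 595 counts in IGROV1Sen replicates 1 to 3 and 18, 19 and 12 in IGROV1Res replicates 1 to 3. The IGROV1Sen libraries lay close together, at 41.1 to 41.7 CPM, and every IGROV1Res library was far below them, at 0.841 to 1.33 CPM. On the log2 scale the change was -5.15 (standard error, SE, 0.16, 95% interval from -5.59 to -4.71, edgeR adjusted p = 1.25e-07), a level 35.5-fold lower. By p it held rank 8 of the 13791 tested genes. In GRCh38 with GENCODE 29, *UNC5C* spans 95162504 to 95549206 of chromosome 4, and 78 bases of its exons (0.7%) are shared with an antisense gene.

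*SLIT2* (ENSG00000145147), which encodes the secreted ligand of ROBO receptors, had 208, 189 and 187 counts in IGROV1Sen and 12, 11 and 19 in IGROV1Res. This is 12.5 to 16.4 CPM against 0.770 to 1.33 CPM, without overlap. Its log2 fold change was -3.80 (SE 0.24, edgeR adjusted p = 4.87e-06), a level 13.9-fold lower. The gene also lies on chromosome 4, from 20253260 to 20620561. The median tested gene of that chromosome had a log2 fold change of -0.22.

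Among the 5 upregulated genes, *NRP2* (ENSG00000118257), which encodes neuropilin-2, a co-receptor for class 3 semaphorins and for vascular endothelial growth factors, had the largest increase. It had 141, 112 and 123 counts in IGROV1Sen and 232, 435 and 339 in IGROV1Res. The IGROV1Res libraries varied from 16.9 to 30.5 CPM, all of them above the 7.40 to 11.1 CPM of IGROV1Sen. The log2 fold change was 1.40 (SE 0.23, adjusted p = 0.00133). *SEMA4A*, a membrane semaphorin known from immune cells, followed with 68, 95 and 107 counts in IGROV1Sen and 266, 200 and 135 in IGROV1Res, a log2 fold change of 1.16 (SE 0.26, adjusted p = 0.0069). Replicate 1 had the highest and replicate 3 the lowest *SEMA4A* level in IGROV1Res, at 19.4 and 9.46 CPM.

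The promoters of these 4 genes are shown because they are those with the largest decreases and increases among called genes with at least 5 CPM in one group. Each run holds 300 bases of the coding strand from RefSeq on GRCh38.p14, from 250 bases before the start annotated by RefSeq, which can differ from that of GENCODE 29, to 50 after it, and capitals mark matches to the motifs searched. The windows are chr4:95548924-95549223 on the minus strand for *UNC5C*, chr4:20251655-20251954 on the plus strand for *SLIT2*, chr2:205682251-205682550 on the plus strand for *NRP2* and chr1:156149694-156149993 on the plus strand for *SEMA4A*.
UNC5C: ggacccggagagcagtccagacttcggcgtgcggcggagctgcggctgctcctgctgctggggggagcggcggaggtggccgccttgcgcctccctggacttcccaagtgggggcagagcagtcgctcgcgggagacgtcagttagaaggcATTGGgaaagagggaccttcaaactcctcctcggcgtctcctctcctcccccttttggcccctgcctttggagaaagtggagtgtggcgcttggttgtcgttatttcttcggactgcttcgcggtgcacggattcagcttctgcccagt
SLIT2: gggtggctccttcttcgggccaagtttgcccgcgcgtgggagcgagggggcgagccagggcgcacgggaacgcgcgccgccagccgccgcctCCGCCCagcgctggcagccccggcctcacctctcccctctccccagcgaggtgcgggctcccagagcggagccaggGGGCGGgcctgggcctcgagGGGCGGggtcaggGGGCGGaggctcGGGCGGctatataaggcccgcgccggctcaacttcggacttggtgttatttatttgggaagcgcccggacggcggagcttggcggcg
NRP2: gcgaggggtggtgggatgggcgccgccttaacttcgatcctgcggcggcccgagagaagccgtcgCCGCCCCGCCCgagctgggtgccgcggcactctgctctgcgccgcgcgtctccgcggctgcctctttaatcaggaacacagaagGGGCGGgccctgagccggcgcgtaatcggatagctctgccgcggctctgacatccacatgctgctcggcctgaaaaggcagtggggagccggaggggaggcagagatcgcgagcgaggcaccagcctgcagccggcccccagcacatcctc
SEMA4A: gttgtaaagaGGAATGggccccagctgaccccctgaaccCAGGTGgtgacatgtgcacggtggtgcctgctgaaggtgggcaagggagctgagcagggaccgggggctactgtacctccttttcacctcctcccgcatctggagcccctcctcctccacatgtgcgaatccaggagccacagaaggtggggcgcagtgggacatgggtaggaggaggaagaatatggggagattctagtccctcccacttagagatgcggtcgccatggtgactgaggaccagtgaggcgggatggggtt

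Motifs were searched on both strands as letters: the TATA box as TATAAA, the GC box as GGGCGG, the CCAAT box as CCAAT, the E-box bound by SNAI and ZEB proteins as CACCTG, a forkhead site as GTAAACA, an AP-1 site as TGANTCA and a TEAD site as GGAATG. The *SLIT2* window held 5 GC boxes and the *NRP2* window 3, and the first pair in *NRP2* overlap by 1 base. The *UNC5C* window held 1 CCAAT box, which ends 95 bases before the start, and no GC box. The *SEMA4A* window held 1 E-box and 1 TEAD match, and its 8 CpG dinucleotides compare with 22 in *UNC5C*, 36 in *SLIT2* and 33 in *NRP2*. Of the 56 genes, 48 had a promoter in the table. A GC box was present in 37 of these 48 (77.1%) and in 44.6% of all 27305 promoters, a TATA box in 1 of 48 (2.08%, against 11.95%), a CCAAT box in 15 (31.2%, against 35.7%), the E-box in 8 (16.7%, against 20.6%), the TEAD match in 6 (12.5%, against 14.0%), the AP-1 match in 1 (2.08%, against 7.76%) and the forkhead match in 0 (against 3.41%). Among the guidance genes, a GC box was in 18 of 26 promoters of downregulated, 4 of 5 of upregulated and 13 of 15 of uncalled genes. Median GC content was 66.8% over the 48 promoters and 58.3% over all. The 27305 promoters include those of genes not tested here, and a comparison with tested genes only was not made. A match is a stretch of letters only and does not show that a factor binds there.

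**Figure D2:**
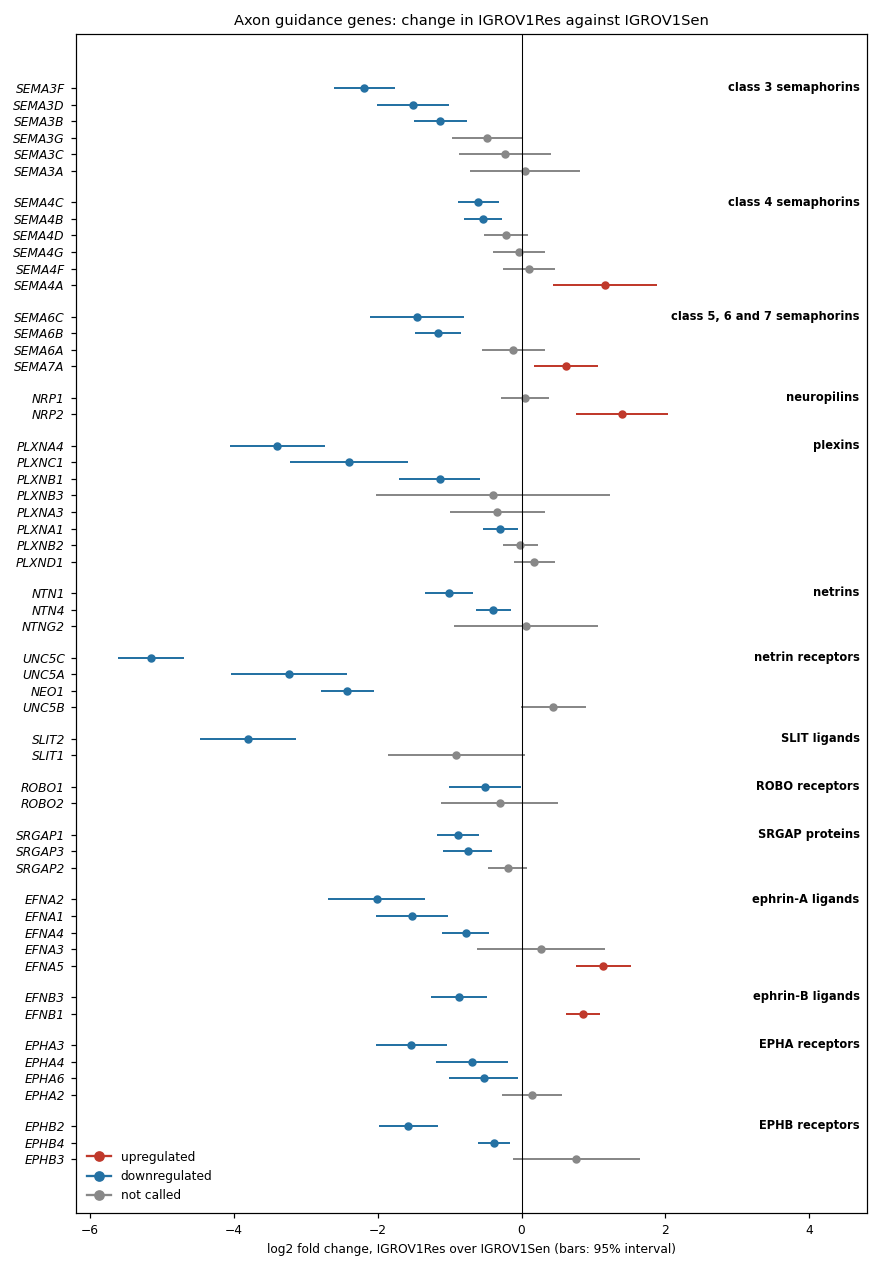
Log2 fold change of IGROV1Res over IGROV1Sen for the 54 tested genes, grouped by family, with 95% intervals as bars. The intervals are wider than the quasi-likelihood test implies, so a bar can include 0 at an unadjusted p under 0.05. Downregulated genes are blue, upregulated genes red and uncalled genes gray. The points reach from -5.15 for *UNC5C* to 1.40 for *NRP2*, and most lie left of 0.

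In the netrin system, 2 of 3 measured netrins and 3 of 4 measured receptors were downregulated, where 18.3% of all tested genes were. *NTN1*, which encodes netrin-1, had 420, 423 and 398 counts in IGROV1Sen and 188, 217 and 216 in IGROV1Res. All IGROV1Res libraries were lower, at 13.7 to 15.2 CPM against 27.9 to 33.0 CPM, with a log2 fold change of -1.01 (SE 0.11, adjusted p = 0.000183). *NTN4*, which encodes a netrin found in basement membranes, had the second highest level per length of the guidance genes, with 4522, 5688 and 5585 counts in IGROV1Sen and 4122, 3853 and 4076 in IGROV1Res. It fell from 374 ± 17.9 to 286 ± 15.6 CPM (SD, n = 3 each), a log2 fold change of -0.39 (adjusted p = 0.00487). *NTNG2*, which encodes a netrin-G bound to the membrane, stayed low at 17 to 39 counts per library and was not called (log2 fold change 0.06).

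*NEO1*, the gene of neogenin, a receptor for netrins and for repulsive guidance molecules, had 525, 686 and 606 counts in IGROV1Sen and 128, 98 and 112 in IGROV1Res. Its libraries did not overlap, at 41.3 to 45.3 CPM against 6.86 to 9.35 CPM. The log2 fold change was -2.42 (SE 0.13, adjusted p = 2.05e-06), a level 5.37-fold lower. *UNC5A*, a further repulsive netrin receptor, had 66, 126 and 105 counts in IGROV1Sen against 8, 13 and 10, a log2 fold change of -3.23 (SE 0.29, adjusted p = 4.16e-05). *UNC5B*, known from vessel guidance, was the exception among the netrin receptors. Its libraries did not overlap, with 7.31 to 9.85 CPM in IGROV1Sen and 10.7 to 12.7 CPM in IGROV1Res, and its log2 fold change of 0.44 missed the threshold (adjusted p = 0.0524). It was past the threshold in 6 other settings, with adjusted p between 0.0332 and 0.0495 for the likelihood ratio test, RLE factors, no composition factor, no filter or no mitochondrially encoded genes, and 0.00512 with the mitochondrial share as a covariate. *DCC* and *UNC5D* were not analysed here.

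Other ligands of these receptors, chosen after their values were seen, did not move in 1 direction. *FLRT2*, which encodes a membrane protein that binds UNC5 receptors, fell from 29.6 ± 9.12 to 2.65 ± 1.39 CPM (log2 fold change -3.49, adjusted p = 7.78e-05). *RGMA*, which encodes a repulsive guidance molecule that binds neogenin, fell from 3.48 ± 1.04 to 0.450 ± 0.105 CPM (log2 fold change -2.93, adjusted p = 0.000276). *FLRT3* rose by 0.50 on the log2 scale (adjusted p = 0.0485), and *RGMB*, at 14.4 and 16.4 CPM, and *FLRT1*, at 1.15 and 1.37 CPM, were not called. *DRAXIN*, a gene of a further netrin receptor ligand, had 8, 15 and 10 counts in IGROV1Sen and 3, 1 and 3 in IGROV1Res and did not enter the test.

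**Figure D3:**
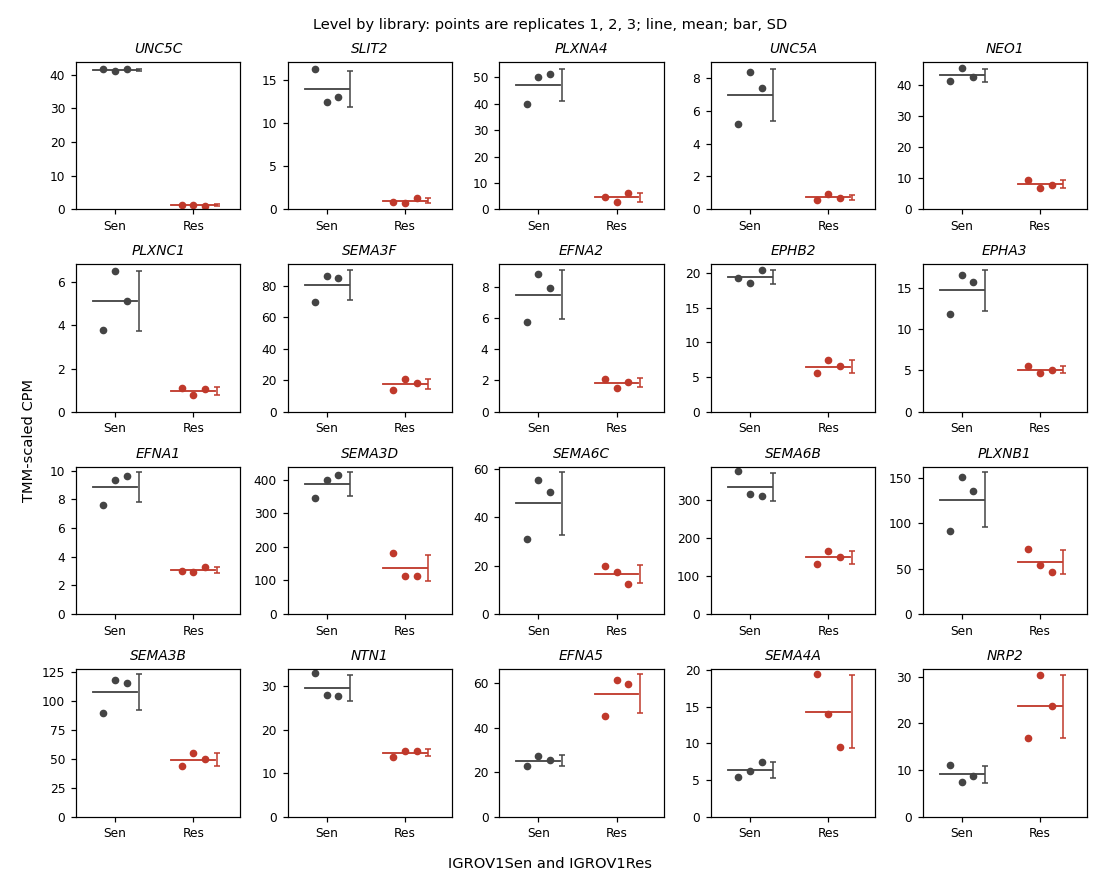
TMM-scaled CPM in each library for the 20 genes called with a change of 1 or more on the log2 scale in either direction. Points are replicates 1, 2 and 3 of IGROV1Sen (dark) and IGROV1Res (red), lines the means and bars the SD, and each axis starts at 0. In every panel the IGROV1Sen and IGROV1Res libraries are separate, with IGROV1Res higher for *EFNA5*, *SEMA4A* and *NRP2* only.

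Of the 6 class 3 semaphorins, which are secreted, 3 were downregulated and none upregulated, where 18.3% and 17.4% of all tested genes were. *SEMA3F*, which encodes a ligand of neuropilin-2, had the largest decrease, from 886, 1312 and 1217 counts to 191, 296 and 262. Its level was 69.7 to 86.7 CPM in IGROV1Sen and 14.0 to 20.7 CPM in IGROV1Res, with a log2 fold change of -2.19 (SE 0.15, adjusted p = 8.32e-06). *NRP2*, as given above, changed in the opposite direction. *SEMA3D*, a semaphorin known from neural crest and vessel guidance, fell from 4389, 6017 and 5911 counts to 2467, 1621 and 1625 (log2 fold change -1.50, SE 0.17, adjusted p = 0.000213), with IGROV1Res replicate 1 highest in its group at 180 CPM. *SEMA3B*, a ligand of both neuropilins that is known as a candidate tumor suppressor, had 1135, 1781 and 1643 counts in IGROV1Sen and 594, 777 and 708 in IGROV1Res (log2 fold change -1.13, SE 0.13, adjusted p = 0.000178).

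The other 3 class 3 genes were not called. *SEMA3C*, a pro-migratory semaphorin, had 3255, 4391 and 4474 counts in IGROV1Sen and 4855, 2532 and 2881 in IGROV1Res. Its level overlapped between the groups, since IGROV1Res replicate 1 had 355 CPM, above all others, and replicates 2 and 3 had 177 and 202 CPM, below the 256 to 313 CPM of IGROV1Sen. Its log2 fold change was -0.23 (adjusted p = 0.462), and without IGROV1Res replicate 1 it was -0.59 (adjusted p = 0.00463). *SEMA3G*, known from vessels, had 11.4 to 17.0 CPM against 9.32 to 11.0 CPM and missed the threshold (log2 fold change -0.48, adjusted p = 0.0524). It passed without IGROV1Sen replicate 2 (adjusted p = 0.0317), with the likelihood ratio test (0.031), with upper-quartile factors (0.0444) and with the mitochondrial share as a covariate (0.0115). *SEMA3A*, the best known repulsive semaphorin, was rare, at 22 to 35 counts in every library (log2 fold change 0.05).

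Of the 6 class 4 semaphorins, which span the membrane, 2 were downregulated and 1 was upregulated, where 18.3% and 17.4% of all tested genes were. *SEMA4C*, a ligand of plexin-B2, fell from 62.7 ± 4.23 to 41.4 ± 4.18 CPM (log2 fold change -0.60, adjusted p = 0.00146) and *SEMA4B* from 50.3 ± 1.63 to 34.8 ± 2.65 CPM (log2 fold change -0.53, adjusted p = 0.00161), while *SEMA4A* rose as described. Per length, *SEMA4G* had the highest level of the class, with 1808, 2451 and 2276 counts in IGROV1Sen and 2460, 2108 and 1788 in IGROV1Res, with overlapping libraries and a log2 fold change of -0.03. The opposite strand of *SEMA4G* holds exons of *MRPL43* over 22.3% of its exonic bases, and without stated strand information reads of the pair cannot be told apart. *SEMA4D*, the ligand of plexin-B1, missed the threshold with a log2 change of -0.21 (adjusted p = 0.143). Its adjusted p was 0.0261 without IGROV1Res replicate 1 and 0.0373 with the mitochondrial share as a covariate. *SEMA4F* was not called, with a log2 change of 0.10.

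Among the remaining semaphorins, *SEMA6B* and *SEMA6C*, transmembrane ligands of class A plexins, were downregulated. *SEMA6B* had 4766, 4778 and 4424 counts in IGROV1Sen and 1807, 2378 and 2122 in IGROV1Res, which is 310 to 375 CPM against 132 to 167 CPM (log2 fold change -1.16, SE 0.11, adjusted p = 6.79e-05). *SEMA6C* had 395, 838 and 719 counts against 273, 250 and 179, and IGROV1Sen replicate 1, at 31.1 CPM, lay well below replicates 2 and 3, at 55.4 and 50.4 CPM, yet above every IGROV1Res library (log2 fold change -1.46, SE 0.23, adjusted p = 0.00112). *SEMA6A* was not called (log2 fold change -0.11). *SEMA7A*, whose lipid-anchored product binds plexin-C1 and integrins, rose from 13.9 ± 2.30 to 21.3 ± 2.89 CPM (log2 fold change 0.62, adjusted p = 0.0127). That call was lost without IGROV1Sen replicate 2 (adjusted p = 0.0564) or replicate 3 (adjusted p = 0.0561), or with both summed (adjusted p = 0.0505).

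On the receptor side, 4 of 8 plexins were downregulated and none upregulated, where 18.3% and 17.4% of all tested genes were. *PLXNA4*, which encodes a receptor for class 6 semaphorins and, with neuropilin-1, for SEMA3A, had 509, 757 and 732 counts in IGROV1Sen and 64, 38 and 87 in IGROV1Res. The IGROV1Res libraries, at 2.66 to 6.09 CPM, were all far below the IGROV1Sen libraries, at 40.0 to 51.3 CPM, and the level was 10.51-fold lower (log2 fold change -3.39, SE 0.23, adjusted p = 8.68e-06). *PLXNC1*, the receptor gene for SEMA7A, had 48, 99 and 73 counts against 15, 11 and 15 (log2 fold change -2.40, SE 0.29, adjusted p = 0.000266). *PLXNB1*, the receptor gene for SEMA4D, had 1168, 2283 and 1934 counts against 978, 775 and 662, with IGROV1Sen replicate 1 again lowest of its group, at 91.8 CPM, and IGROV1Res replicate 1 highest, at 71.5 CPM (log2 fold change -1.14, SE 0.20, adjusted p = 0.002).

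*PLXNA1*, a co-receptor of neuropilins, had the smallest called decrease, from 204.5 ± 12.9 to 167 ± 8.10 CPM (log2 fold change -0.29, adjusted p = 0.0202). The adjusted p was 0.058 without IGROV1Sen replicate 2, 0.0952 without IGROV1Res replicate 2 and 0.0691 with a replicate block. *PLXNB2*, which encodes a receptor for class 4 semaphorins, had the highest level per length of all guidance genes, with 9658, 10608 and 9921 counts in IGROV1Sen and 10080, 9865 and 10034 in IGROV1Res. Its log2 fold change was -0.02 with a 95% interval of -0.24 to 0.21. *PLXND1* (0.18), *PLXNA3* (-0.34) and *PLXNB3* (-0.40) were not called. *PLXNA3* had an adjusted p of 0.0231 and a log2 fold change of -0.56 without IGROV1Sen replicate 1. Without both libraries that stood apart, its adjusted p was 0.0224. With the mitochondrial share as a covariate, *PLXND1* (0.196) and *PLXNA3* (-0.235) passed the threshold, with edgeR adjusted p of 0.0437 and 0.0295. *PLXNB3* had only 3 to 18 counts per library and shares 20.4% of its exonic bases with *SRPK3*. *NRP1*, which encodes neuropilin-1, had 2387, 2254 and 2134 counts in IGROV1Sen and 2369, 2578 and 2105 in IGROV1Res, and its log2 fold change was 0.04 (95% interval -0.28 to 0.37), or 0.25 (adjusted p = 0.0172) without both libraries that stood apart.

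In the SLIT and ROBO system no gene was upregulated, where 17.4% of all tested genes were. So few genes cannot show a difference from that share. Beside *SLIT2*, *SLIT1* had 23, 29 and 40 counts in IGROV1Sen and 13, 24 and 12 in IGROV1Res, and did not pass (log2 fold change -0.91, adjusted p = 0.0635). *SLIT1* passed without IGROV1Sen replicate 1 (0.0473), without IGROV1Res replicate 2 (0.037), with the likelihood ratio test (0.0301) and with the mitochondrial share as a covariate (0.0399). *ROBO1*, a receptor for SLIT proteins, had 142, 150 and 129 counts against 116, 87 and 94 and was called by a narrow margin (log2 fold change -0.51, adjusted p = 0.0469). That call was lost in 9 of 18 other settings, with an adjusted p of 0.0871, 0.11 and 0.072 without IGROV1Sen replicate 1, 2 or 3, of 0.158 and 0.131 without IGROV1Res replicate 2 or 3, and of 0.0736 with a replicate block. It was also lost without both libraries that stood apart (log2 fold change -0.38, edgeR adjusted p = 0.157). *ROBO2* had 164, 224 and 208 counts in IGROV1Sen and 238, 94 and 148 in IGROV1Res. Its level was 12.9 to 14.8 CPM in IGROV1Sen with a wide range in IGROV1Res, 17.4, 6.58 and 10.4 CPM in replicates 1, 2 and 3 (log2 fold change -0.30, adjusted p = 0.444, and -0.73 with an adjusted p of 0.0244 without IGROV1Res replicate 1). *ROBO3* had 1 to 9 counts per library and did not enter the test.

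The SRGAP genes encode GTPase-activating proteins that bind ROBO1 and shape membrane protrusions. *SRGAP1* had 1812, 1965 and 1898 counts in IGROV1Sen and 1148, 955 and 996 in IGROV1Res, without overlap (log2 fold change -0.88, SE 0.10, adjusted p = 0.000196). *SRGAP3* fell from 43.8 ± 4.79 to 26.1 ± 2.63 CPM (log2 fold change -0.75, adjusted p = 0.00102). *SRGAP2* was not called, at 66.2 ± 5.87 and 57.9 ± 3.91 CPM (adjusted p = 0.14, and 0.0326 without IGROV1Sen replicate 1). Its human-specific copies are partial and nearly identical to the part of the gene that they hold. Reads of that part may be split between them, so the value of *SRGAP2* is uncertain.

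The ephrin ligands moved in both directions. In class A, *EFNA5* rose from 287, 413 and 365 counts to 618, 877 and 848, which is 22.6 to 27.3 CPM against 45.1 to 61.4 CPM (log2 fold change 1.14, SE 0.13, adjusted p = 0.000224). *EFNA2* fell from 73, 133 and 113 counts to 29, 22 and 27 (log2 fold change -2.02, SE 0.24, adjusted p = 0.000222) and *EFNA1*, known as an endothelial and tumor ligand of EPHA2, from 97, 141 and 137 to 41, 42 and 47 (log2 fold change -1.52, SE 0.18, adjusted p = 0.00021). *EFNA4* fell from 23.9 ± 1.95 to 14.0 ± 0.564 CPM (log2 fold change -0.78, adjusted p = 0.000684), and *EFNA3* was rare and not called (log2 fold change 0.27). *EFNA3* and *EFNA4* share 853 (44.7%) and 189 of their exonic bases with a read-through gene, so that part of their counts is uncertain.

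In class B, *EFNB1* rose and *EFNB3* fell. *EFNB1* had 618, 706 and 703 counts in IGROV1Sen and 1136, 1309 and 1236 in IGROV1Res, with close replicates at 46.6 to 49.2 and 83.0 to 91.7 CPM (log2 fold change 0.85, SE 0.08, adjusted p = 5.15e-05). *EFNB3* fell from 44.4 ± 4.05 to 24.2 ± 4.25 CPM (log2 fold change -0.87, adjusted p = 0.00107). *EFNB2* was not analysed here.

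None of the 7 tested EPH receptors was upregulated and 5 were downregulated, where 17.4% and 18.3% of all tested genes were. With so few genes, the absence of upregulated ones is near that share. *EPHB2*, a receptor of ephrin-B ligands, had 245, 282 and 293 counts in IGROV1Sen and 76, 106 and 94 in IGROV1Res, 18.6 to 20.5 CPM against 5.55 to 7.42 CPM (log2 fold change -1.58, SE 0.14, adjusted p = 4.86e-05). *EPHA3* had 151, 250 and 225 counts against 76, 67 and 72 (log2 fold change -1.53, SE 0.17, adjusted p = 0.00018). *EPHB4*, a receptor of ephrin-B2 and the EPH gene with the highest level per length, fell by less, from 2296, 2572 and 2465 counts to 1912, 1819 and 1920 (log2 fold change -0.38, SE 0.08, adjusted p = 0.00392).

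*EPHA4*, which binds ephrins of both classes, fell from 9.50 ± 0.756 to 5.88 ± 1.03 CPM (log2 fold change -0.69, adjusted p = 0.0133, and 0.0598 without IGROV1Sen replicate 2). *EPHA6* fell from 7.93 ± 1.15 to 5.51 ± 0.2798 CPM (log2 fold change -0.53, adjusted p = 0.0367). The *EPHA6* call was lost in 8 of 18 other settings, with an adjusted p of 0.174 and 0.0633 without IGROV1Sen replicate 2 or 3, of 0.0782, 0.0798 and 0.0926 without IGROV1Res replicate 1, 2 or 3, and of 0.0882 with a replicate block. *EPHA2*, the main EPHA receptor of epithelia, had 525, 594 and 546 counts in IGROV1Sen and 754, 547 and 535 in IGROV1Res, and only IGROV1Res replicate 1 was above the IGROV1Sen libraries (log2 fold change 0.14, 95% interval -0.26 to 0.54). *EPHB3* had 17, 35 and 29 counts against 43, 62 and 32 (log2 fold change 0.76, adjusted p = 0.0852). Its adjusted p was 0.0439 without IGROV1Res replicate 3, 0.0458 without both libraries that stood apart and 0.018 with the mitochondrial share as a covariate. *EPHA8* had 19, 9 and 17 counts in IGROV1Sen and 0, 3 and 1 in IGROV1Res, too few for the filter. Its libraries did not overlap, and without the filter its log2 fold change was -3.39 (edgeR adjusted p = 0.00523).

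Levels of different genes were compared only per length, as mean CPM per kb of merged exons. In IGROV1Sen the order began with *PLXNB2* (99.0 ± 4.91), *NTN4* (89.8 ± 4.30), *SEMA6B* (75.6 ± 8.13), *SEMA3D* (47.8 ± 4.47) and *SEMA3C* (45.7 ± 4.61), all in CPM per kb with the SD of 3 libraries. Of these neighbors, *SEMA3D* and *SEMA3C* differed by less than their SD. In IGROV1Res *PLXNB2* (97.9 ± 3.25) and *NTN4* (68.5 ± 3.75) still led, followed by *SEMA3C* (39.0 ± 15.3), *SEMA6B* (33.8 ± 3.92) and *SEMA4G* (28.7 ± 5.21), and these last 3 lay within the SD of *SEMA3C*. *EFNB1* moved from rank 12 to rank 6 of the 54 tested genes and *EFNA5* from 26 to 13. *UNC5C* moved from rank 28 to rank 51, *NEO1* from 23 to 38 and *SLIT2* from 40 to 53.

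**Figure D4:**
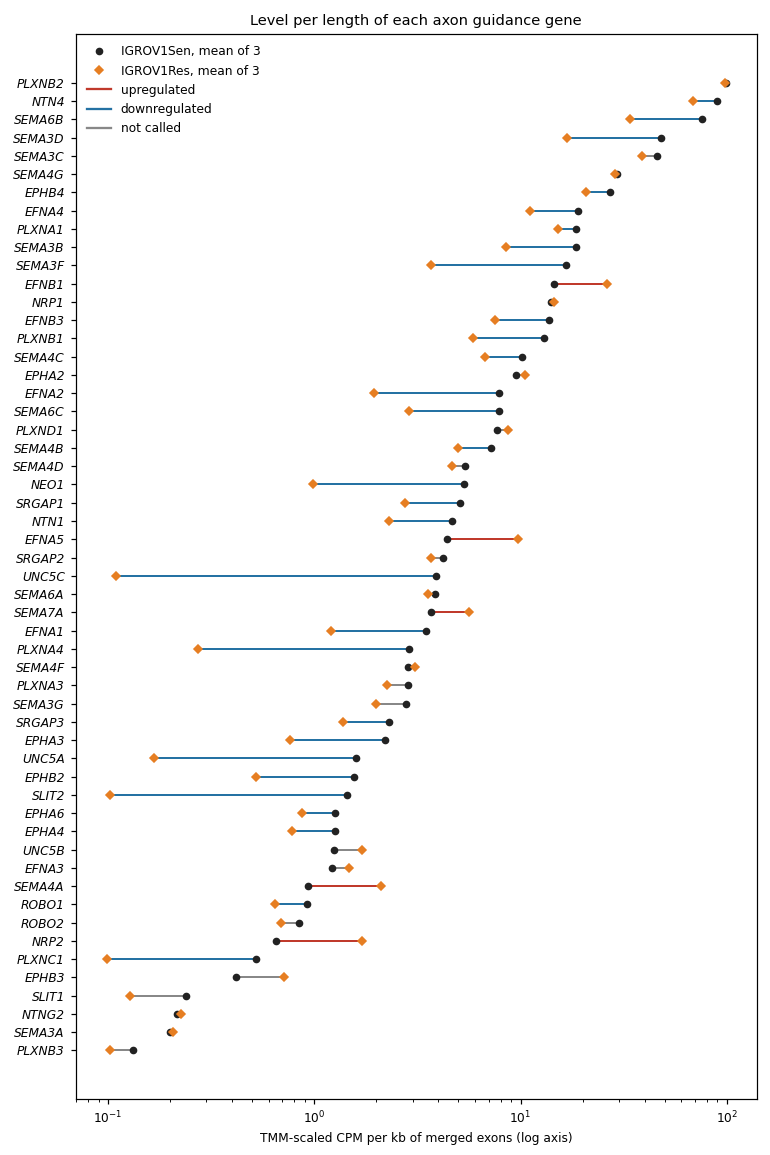
Mean level of the 54 tested genes in IGROV1Sen (dark circles) and IGROV1Res (orange diamonds), as TMM-scaled CPM per kb of merged exons on a log axis, ordered by the level in IGROV1Sen. The joining line is blue for downregulated, red for upregulated and gray for uncalled genes. *PLXNB2* and *NTN4* lead in both groups, and the longest line is that of *UNC5C*, from 3.88 to 0.109.

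Chromosomes differed in the median change of their genes. Chromosome 3 held 12 of the 56 genes, and its median tested gene had a log2 fold change of -0.27. Of these 12, 8 were downregulated (66.7%, against 37.6% of all 771 tested genes of that chromosome). In the edgeR fit behind the calls, and with DESeq2, 0 were upregulated (4.93% of all tested genes of that chromosome with edgeR). *EPHB3*, which rose at an unadjusted p under 0.05, was called upregulated in 3 other edgeR settings (adjusted p of 0.018, 0.0439 and 0.0458). With the mitochondrial share as a covariate, *PLXND1* was called upregulated as well (edgeR adjusted p = 0.0437). On the other chromosomes, 21 of 42 tested guidance genes were downregulated and 5 upregulated, against 17.2% and 18.1% of all tested genes there. *SEMA3F*, *EPHA3*, *PLXNB1* and *SEMA3B*, the chromosome 3 genes with decreases of at least 1, had log2 fold changes that, less that median, were -1.92, -1.26, -0.87 and -0.86. The part of the chromosome in these changes was not tested.

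The decreases extended in part to other genes of guidance signaling. The lists of these genes were written with earlier results of these data known. Of 41 tested genes for other cues and receptors, 7 rose (17.1%) and 14 fell (34.1%), where 17.4% and 18.3% of all tested genes did. Their median log2 fold change was -0.05. *NCAM1*, which encodes a neural cell adhesion molecule, fell from 122.6 ± 12.4 to 15.6 ± 3.34 CPM (log2 fold change -2.97, adjusted p = 1.6e-06), and *PTPRD*, a receptor phosphatase gene, and *SDC3*, a syndecan gene, had log2 fold changes of -3.03 and -1.22. *TMEFF1*, which encodes a transmembrane protein, rose from 1.92 ± 0.159 to 13.7 ± 3.63 CPM (log2 fold change 2.83, adjusted p = 2.79e-05), and *WNT5A* and *BMP7*, genes of secreted factors, rose with log2 fold changes of 0.55 and 0.56.

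Of 64 intracellular effectors, 12 rose and 14 fell (18.8% and 21.9%), near the shares of all tested genes, with a median of -0.07. *MICAL2*, which encodes an actin-oxidizing enzyme of the family that acts below plexins, rose from 57.5 ± 5.72 to 181.9 ± 22.3 CPM (log2 fold change 1.66, adjusted p = 8.29e-06). *PPP3CC*, a calcineurin subunit, and *ARHGAP39*, a relative of a ROBO effector of flies, both on chromosome 8, where the median tested gene had a log2 fold change of 0.39, rose by 0.93 and 0.73. *DPYSL5* and *DPYSL2*, which encode collapsin response mediators that act below class 3 semaphorins, fell with log2 fold changes of -0.96 and -1.17, and *FYN*, a SRC family kinase gene, with one of -2.23. Of 21 proteases and regulators of these ligands and receptors, 4 rose (19.05%) and 11 fell (52.4%), where 17.4% and 18.3% of all tested genes did. Their median was -0.30. *PTPN13*, a phosphatase gene that acts on ephrin-B, and *NEDD9*, an adhesion adaptor gene, fell by 2.01 and 0.92 on the log2 scale, and *TLL1*, a protease gene, went from 24, 37 and 47 counts to 2, 1 and 0, a change fitted at -5.00 that depends on the prior count of the fit. *ANKS1A*, whose product binds EPH receptors, *SDCBP*, which encodes syntenin, and *BCAR1*, an adhesion adaptor gene, rose by 0.72, 0.49 and 0.54.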

How the data were processed

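The authors sequenced RNA of 3 IGROV1Sen and 3 IGROV1Res libraries and deposited raw read counts per Ensembl gene. The submitters' processing notes name edgeR and hg18, and the aligner, the counting tool and the strandedness are not given in the sources used here. A second deposited table holds the authors' log2 fold change, average log2 CPM, likelihood ratio, p-value and FDR, of which only the gene symbols were used. Coordinates, exon lengths and overlaps come from GENCODE 29 (GRCh38), and 14611 of the 14646 identifiers matched it.

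Counts were filtered (at least 10 counts at the smaller group size and 15 in all), scaled by TMM and tested with the quasi-likelihood test of edgeR 4.0.16 in R 4.3.3, with Benjamini-Hochberg adjustment over 13791 genes. The scripts were tested on simulated data. The members and lists were chosen with earlier results of these data known. Every gene matching the symbol pattern could be named, and counts in all libraries are given for genes called with a change of 1 or more on the log2 scale, for genes at 0 to 3 counts in one group and for the gene with the highest mean CPM in each family. From each list of other guidance genes, up to 3 called genes in each direction with the smallest adjusted p are named. Same-numbered replicates did not deviate together (correlations of -0.465, 0.113 and -0.474), so the numbers were not taken as pairs. Differently numbered libraries of the 2 groups had correlations from -0.521 to 0.61, the highest for IGROV1Sen replicate 1 with IGROV1Res replicate 3. Alternatives were the likelihood ratio test, DESeq2 1.42.0, other scalings and filters, a replicate block, leaving out or summing libraries, the mitochondrial share as a covariate and stricter thresholds.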

Additional observations from a re-analysis of the deposited data

How the results depend on the processing

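Of the 29 downregulated and 5 upregulated guidance genes, 25 and 4 kept their call in every alternative that gave them a value, which were 18 for each gene but *UNC5A*, with 17, since it did not reach 10 counts in every library. Leaving out 1 library in turn gave 27 to 32 downregulated and 4 to 6 upregulated guidance genes, and 29 to 45 and 16 to 26 of the other guidance genes. Over all tested genes, these runs gave 13% to 21.3% downregulated and 11% to 21.5% upregulated. With the replicate number as a block, the counts were 26 and 5, and 29 and 16 for the other guidance genes, while the counts over all tested genes went from 2530 and 2394 to 1732 and 1530. With the mitochondrial share as a covariate 33 guidance genes were downregulated and 8 upregulated, beside 26.0% and 25.6% of all tested genes. With a change of at least 1 on the log2 scale, 3 of 54 tested guidance genes were upregulated and 17 downregulated, beside 4.5% and 5.88% of all tested genes. Of the 126 tested other guidance genes, 2 rose and 18 fell by that much.

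The genes that changed sign had no call. Leaving out 1 library moved the log2 fold change of *EPHA2* between -0.06 and 0.24, of *SEMA3A* between -0.152 and 0.192, of *SEMA4G* between -0.177 and 0.085, of *SEMA6A* between -0.276 and 0.053, of *EFNA3* between -0.011 and 0.45, of *NTNG2* between -0.391 and 0.282, of *NRP1* between -0.015 and 0.165, of *PLXNB2* between -0.041 and 0.027 and of *PLXNB3* between -1.031 and 0.041. Without IGROV1Sen replicate 1 and IGROV1Res replicate 3 it was 0.027 for *SEMA4G*, 0.086 for *SEMA6A* and 0.033 for *PLXNB2*, and with IGROV1Sen replicates 2 and 3 summed it was -0.012 for *NRP1*. The causes were not tested. Depth limits the genes with few counts, such as *PLXNB3*, *ROBO3* and *EPHA8*.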
